A study of Mus musculus with 3 samples.

Results

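The genes described are 10 components of bone morphogenetic protein (BMP) and transforming growth factor beta (TGF-beta) signalling, taken by symbol from the 56980 genes listed in the count matrices. They are the receptors Bmpr1a (ENSMUSG00000021796) and Bmpr2 (ENSMUSG00000067336), the SMAD proteins Smad1 (ENSMUSG00000031681), Smad5 (ENSMUSG00000021540), Smad4 (ENSMUSG00000024515) and Smad7 (ENSMUSG00000025880), the corepressor Ski (ENSMUSG00000029050), and Id1 (ENSMUSG00000042745), Id2 (ENSMUSG00000020644) and Id3 (ENSMUSG00000007872). Bone marrow nucleated cells (BMNCs) flushed from the femurs of C57BL/6 mice were profiled with droplet-based single-cell RNA-seq at day 14. Control mice were not irradiated, IR mice received 6.0 Gy of gamma rays from a cobalt source with solvent, and IR+CBD mice received the same dose with repeated intraperitoneal injections of cannabidiol before and after it. The sample label of the last group names only the cannabidiol treatment, and its irradiation was taken from the design of the series. Age was not stated for these mice. Cells from 3 mice were pooled in each group, and Lin−Kit+, Lin−Kit− and Lin+ fractions were sorted and recombined at 5:4:1, so shares of cells describe that mix rather than whole marrow.

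Each group was 1 library, so no difference between groups has a replicate check and no test was made. Cells with at least 200 genes and at most 5% mitochondrial UMIs (unique molecular identifiers, each standing for a captured RNA) were kept. The kept cells of Control, IR and IR+CBD numbered 10674, 10345 and 10273, with 194839224, 202361682 and 173466089 UMIs. Median depth was 12479.5, 14211 and 12502 UMIs per cell. Control and IR shared 35 cell barcodes, Control and IR+CBD 41, and IR and IR+CBD 51. Levels are summed UMIs per 1000000 UMIs of the same cells (CPM), and ratios are given with exact conditional binomial 95% intervals, which cover counting error only. A member counted as higher or lower where its ratio passed 1.5-fold in either direction, the interval left out 1, and the pair of libraries held at least 20 UMIs. IR over Control and IR+CBD over IR both use the IR library, so an error in that library moves them in opposite directions, and their values are set side by side only.

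BMP ligands bind complexes of type I receptors such as Bmpr1a and the type II receptor Bmpr2, which phosphorylate Smad1 and Smad5. These join Smad4, the partner shared with the TGF-beta branch, and the complex enters the nucleus, where Id genes are among the best known targets. Smad7 inhibits the receptors and is itself induced by the pathway, Ski represses transcription with SMAD complexes, and Id proteins bind E proteins and keep them from DNA in developing blood cells.

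Cells were grouped by raw UMIs of other genes, so that the gates did not use the members. The gates were at least 5 UMIs of Mpo, 2 of Klf1, 2 of Cd79a, 5 of Retnlg, 3 of Siglech, or 1 each of Cd34 and Adgrl4, and a cell could fall in several gates. In Control, IR and IR+CBD, the Mpo gate held 3227, 2916 and 3294 cells, the Klf1 gate 586, 1446 and 1181, and the Cd79a gate 3524, 4072 and 3456. The Retnlg gate held 1004, 1076 and 1215 cells, the Siglech gate 273, 46 and 79, and the Cd34-Adgrl4 gate 3116, 1952 and 1970. Gates on raw UMIs depend on depth, and depth differed between libraries within gates. Median UMIs per cell were 33196, 30684 and 24151 in the Mpo gate and 27462.5, 32784.5 and 26468.5 in the Cd34-Adgrl4 gate. A gate may thus hold unlike cells in different libraries, and the part of depth in the values was not tested. All 6 neutrophil and monocyte progenitor markers were detected in the Mpo gate of each library, summing to 13979.7, 15360.5 and 17702 CPM and led by Prtn3. The Klf1 gate held 8 of 8 erythroid markers at 6977, 5926 and 6542 CPM, and the Cd79a gate 7 of 7 B lineage markers at 7558, 7736 and 7747 CPM. Late neutrophil markers, 7 of 7, summed to 251603, 243296 and 255776 CPM in the Retnlg gate, and plasmacytoid dendritic cell markers, 7 of 7, to 10196, 9806 and 11888 CPM in the Siglech gate. The Cd34-Adgrl4 gate was not a pure stem and progenitor gate. Its Mpo-gate markers summed to 9645, 11434 and 11685 CPM and its 9 stem and multipotent progenitor markers to 523.1, 356 and 439 CPM, and 69%, 87.4% and 83.4% of its cells were also in the Mpo gate. It is therefore called by its rule, and its cells outside the Mpo gate, chosen after the data were seen, are described separately.

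In all BMNCs, Bmpr2, Smad7 and Ski were lower in IR than in Control, and no member was higher. These 3 of 10 members compare with 9.38% of 23421 genes lower and 4.85% higher by the same rule. The median log2 ratio was −0.41 over the members and −0.06 over all these genes, and 8 of 10 members had a ratio under 1. Between IR and IR+CBD, 0 of 10 members were higher in IR+CBD and 0 lower, beside 2.7% and 2.74% of 23002 genes. Here 9 of 10 ratios were over 1, the exception being Id3, and the median log2 ratio was 0.20 over the members and 0.00 over all genes.

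Bmpr2, the type II receptor, was at 40.9, 25.1 and 28.7 CPM in the order Control, IR and IR+CBD, which is kept throughout. The ratio of IR to Control was 0.615 (95% interval 0.594 to 0.637), and that of IR+CBD to IR was 1.14 (1.10 to 1.19). IR was thus the lowest of the 3 libraries, and IR+CBD lay nearer to IR than to Control, at 0.702 of Control. The type I receptor Bmpr1a was sparse, with 343, 327 and 369 UMIs and levels of 1.76, 1.62 and 2.13 CPM. Its IR to Control ratio of 0.918 (0.786 to 1.07) did not leave 1, and its IR+CBD to IR ratio was 1.32 (1.13 to 1.53).

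The receptor-activated SMADs were at 21.7, 15.7 and 17.4 CPM for Smad1 and at 15.3, 11.9 and 12.8 CPM for Smad5. Smad4, the common partner, was at 45.0, 32.8 and 35.3 CPM. For all of these the IR library was the lowest, and the IR to Control ratios of 0.721 for Smad1, 0.773 for Smad5 and 0.728 for Smad4 left out 1 but did not pass 1.5-fold. IR+CBD over IR gave 1.11, 1.08 and 1.08 for the same genes.

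Smad7, the inhibitory SMAD, was at 66.8, 43.7 and 50.6 CPM. IR over Control was 0.654 (0.636 to 0.672) and IR+CBD over IR was 1.16 (1.13 to 1.19). Ski, the corepressor, was at 35.0, 17.9 and 23.3 CPM. It had the lowest IR to Control ratio of the members, 0.511 (0.490 to 0.532), and an IR+CBD to IR ratio of 1.30 (1.24 to 1.36), which left IR+CBD at 0.665 of Control. The call on Ski held under the alternatives run on all BMNCs, except at a limit of 2-fold, which no member passed. That on Smad7 was also lost when cells were weighted equally (0.735) and when the median ratio of all genes was set to 1 (0.675).

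Of the Id genes, targets of the pathway, Id2 was lower in IR than in Control without passing 1.5-fold, while the Id1 ratio was near 1 and that of Id3 over 1. Id1 was at 14.0, 14.0 and 17.1 CPM, with an IR to Control ratio of 1.00 (0.949 to 1.06) and an IR+CBD to IR ratio of 1.22 (1.16 to 1.28). Id2 was at 24.6, 20.6 and 24.8 CPM, with ratios of 0.838 (0.804 to 0.874) and 1.20. Id3 was at 28.4, 32.0 and 30.0 CPM, with ratios of 1.13 (1.09 to 1.17) and 0.938 (0.904 to 0.973). None of the Id genes passed 1.5-fold in either comparison.

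**Figure D1:**
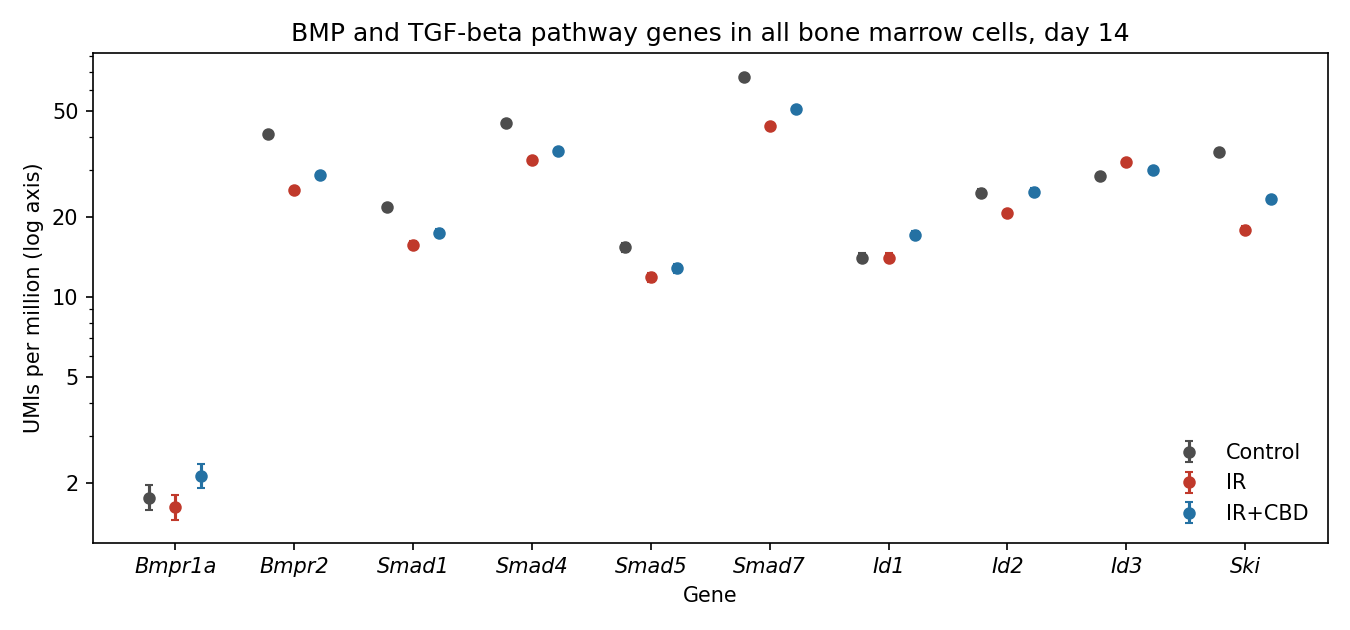
Levels of the 10 genes in all kept BMNCs at day 14, in CPM on a log axis, with 1 point per library (Control grey, IR red, IR+CBD blue) and exact 95% Poisson bars. Bmpr2, Smad7 and Ski lie lowest in IR (25.1, 43.7 and 17.9 CPM), and Id3 lies highest there (32.0 CPM).

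The mix of cells differed between the libraries. In all BMNCs, megakaryocyte markers, 4 of 4 and led by Pf4, were at 84.7, 32.3 and 50.5 CPM, and the 9 of 9 stem and multipotent progenitor markers at 341, 215 and 245 CPM, led by Meis1 in Control and Kit in the other libraries. Stromal markers, led by Pdgfrb, were at 9.25, 4.11 and 5.70 CPM, with 6, 5 and 6 of 6 detected. Pdgfrb alone made up 6.58, 2.72 and 3.39 CPM of the stromal sums, which thus rest mainly on 1 gene. It was higher in the Mpo gate, at 7.61, 4.35 and 5.34 CPM. These lists were lowest in IR and in between in IR+CBD, as were Bmpr2, Smad7 and Ski, and their part in those values was not tested. The Klf1 gate, where most members were at their lowest, held 5.49%, 14% and 11.5% of the kept cells. The Cd34-Adgrl4 gate, where Ski and Bmpr2 were among the highest, held 29.2%, 18.9% and 19.2%. With each class of cells given its Control share of UMIs, IR over Control became 0.633 for Ski, which kept its call, and 0.726 for Bmpr2 and 0.714 for Smad7, which lost theirs. The Id1 ratio became 1.20 under the same weighting, and the IR+CBD to IR ratio of Id3 turned from 0.938 to 1.09.

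The order of the 6 gates differed between members, except that Smad4 and Id3 had the same order in IR, and Bmpr2 and Ski in IR+CBD. Gates share cells, so the intervals on ratios between gates count some cells on both sides and are approximate. The orders leave out 2 populations. In cells outside all gates, Bmpr2 (68.0, 48.2 and 57.8 CPM), Ski (64.7, 42.5 and 49.1 CPM) and Id2 were higher than in any gate of the same library, and in Cd34-Adgrl4 cells outside the Mpo gate so were Bmpr2, Smad1, Smad5, Smad7 and Ski. Bmpr1a was highest in the Retnlg gate, at 15.6, 15.4 and 19.4 CPM. The next gate was at 1.57, 0.528 and 1.19 CPM, so the gap lay outside the counting error in each library. Bmpr1a was thus carried mainly by cells with late neutrophil markers, where its IR to Control ratio was 0.982 (0.810 to 1.19).

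Bmpr2 led in the Siglech gate, at 55.6, 42.2 and 40.5 CPM, followed by the Cd34-Adgrl4 gate at 49.1, 32.7 and 39.6 CPM. These neighbours did not differ beyond counting error in any library, with a ratio of 1.13 (0.969 to 1.32) in Control. Bmpr2 was lowest in the Klf1 gate, at 25.6, 17.98 and 17.4 CPM.

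Smad1 was highest in the Cd34-Adgrl4 gate, at 30.7, 26.6 and 29.6 CPM, and lowest in the Klf1 gate, at 5.17, 4.53 and 4.47 CPM. In Control and IR+CBD it did not differ beyond counting error between the Cd34-Adgrl4 and Siglech gates (ratios 1.18, 0.946 to 1.48, and 1.04, 0.693 to 1.62). In IR the next gate was Mpo at 22.2 CPM, but 87.4% of the Cd34-Adgrl4 cells were also in that gate, so no interval is given. Smad5 had another order, with the Cd79a gate highest at 21.5, 19.1 and 21.1 CPM and the Retnlg gate lowest at 4.86, 5.06 and 5.48 CPM. The Cd34-Adgrl4 gate came next for Smad5 at 17.1, 13.6 and 15.1 CPM, which was lower beyond counting error in each library. The receptor-activated SMADs thus led in different gates, but in Cd34-Adgrl4 cells outside the Mpo gate both were above all 6 gates, Smad1 at 40.5, 36.9 and 41.2 CPM and Smad5 at 26.2, 21.6 and 26.1 CPM.

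Smad4 was highest in the Siglech gate of Control and IR+CBD, at 82.0 and 89.4 CPM, with the Cd79a gate next at 64.7 and 62.5 CPM. In IR these gates did not differ, at 53.6 and 53.9 CPM (Cd79a over Siglech 1.01, 0.714 to 1.47). Smad7 led in the same gates, at 134.5, 90.9 and 107 CPM in the Siglech gate and 127.1, 109 and 127 CPM in the Cd79a gate, and did not differ between them in any library. Its lowest gate was Mpo in Control, at 29.0 CPM, and Retnlg in IR and IR+CBD, at 18.7 and 22.9 CPM.

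Ski was highest in the Cd34-Adgrl4 gate of Control and IR, at 45.6 and 22.9 CPM. In IR+CBD the Siglech gate came first at 46.5 CPM, without differing from the Cd34-Adgrl4 gate at 33.0 CPM (1.41, 0.997 to 1.93). Its lowest gate was Klf1 in each library, at 19.4, 12.4 and 11.9 CPM.

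The Id genes split between gates. Id1 was highest in the Retnlg gate, at 30.3, 26.2 and 35.2 CPM, and the next gate reached 15.6, 19.1 and 20.5 CPM. Id2 was also highest there, at 53.8, 54.4 and 56.8 CPM, with the next gate at 25.5, 21.6 and 29.9 CPM. Id3 was highest in the Cd79a gate, at 150.5, 167 and 180.0 CPM, against 16.0, 12.99 and 23.8 CPM in the Siglech gate, which came next. All 3 Id genes were lowest in the Klf1 gate, at 2.18 to 3.71 CPM. Id2 was higher in cells outside all gates than in any gate, at 134.0, 119 and 134.2 CPM, and these cells held 2329 of its 4795 UMIs in Control. They held 5 of 5 T and natural killer cell markers at 304, 305 and 277 CPM, led by Nkg7 (224, 244 and 229 CPM), and 4 of 4 monocyte markers at 1335, 1470 and 1026 CPM, led by Ly6c2. Late neutrophil markers, 7 of 7 and led by S100a9, were at 61327, 82315 and 86231 CPM in these cells, so they were of several kinds, and the part of each in the Id2 level was not tested.

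**Figure D2:**
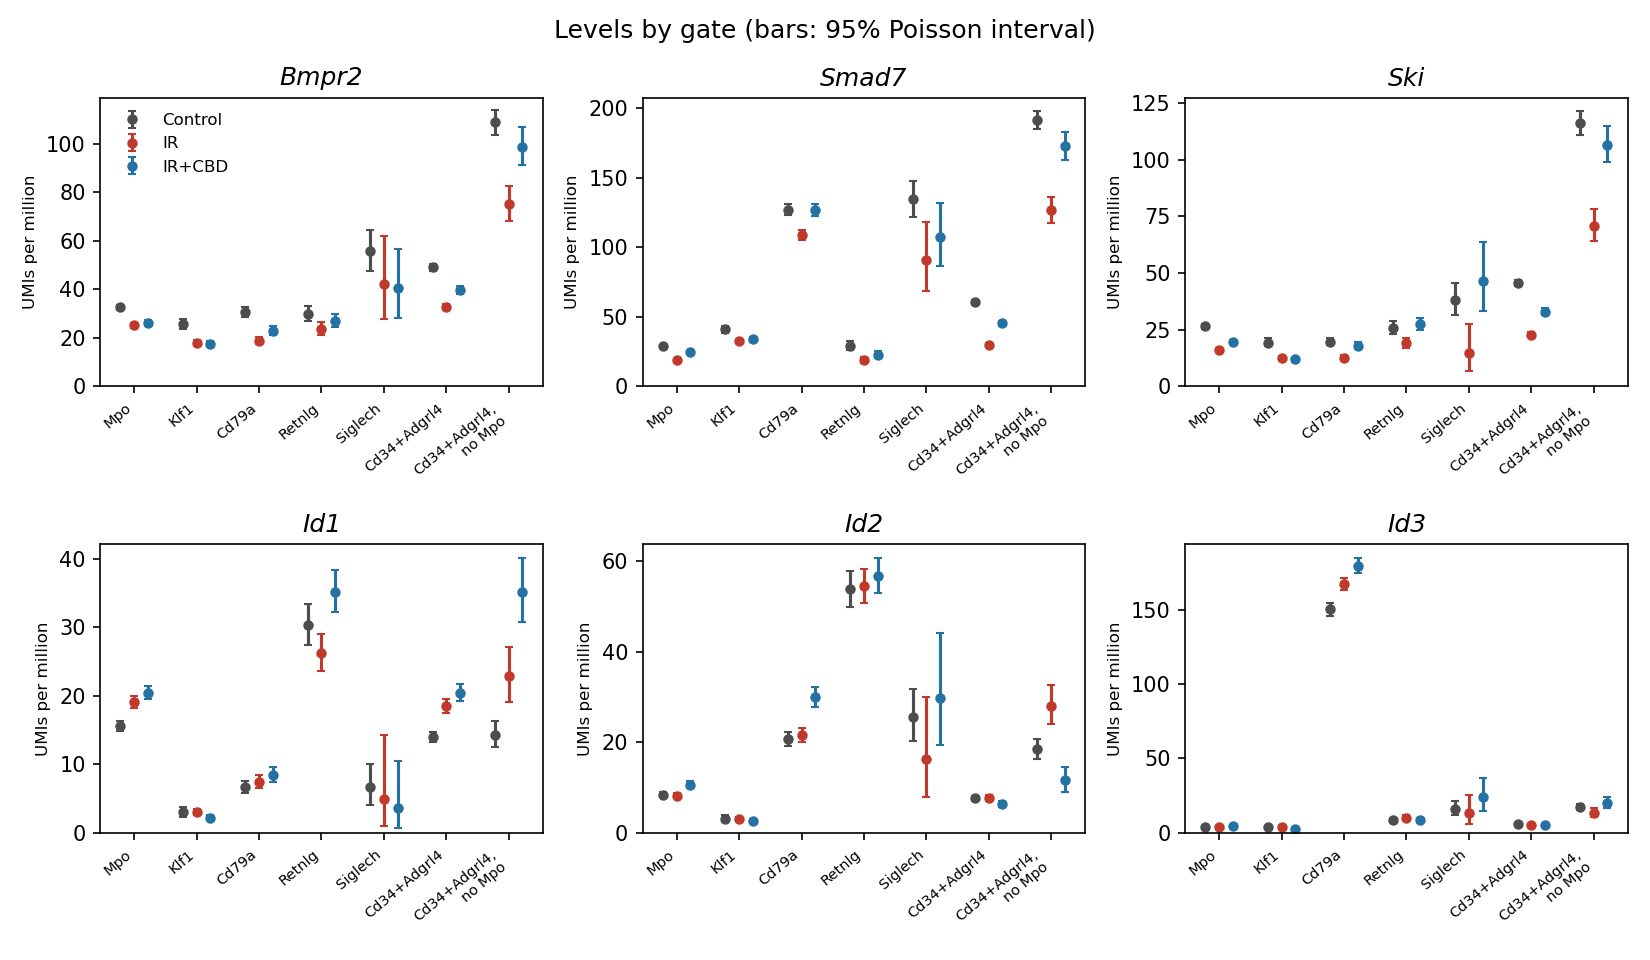
Levels of Bmpr2, Smad7, Ski, Id1, Id2 and Id3 in CPM by gate, the Cd34-Adgrl4 cells outside the Mpo gate included, with 1 point per library (Control grey, IR red, IR+CBD blue) and 95% Poisson bars. Id3 stands out in the Cd79a gate (150.5, 167 and 180.0 CPM), and Ski is lowest in IR in the Cd34-Adgrl4 gate (22.9 CPM).

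Over the 6 gates, 13 of the 59 member-gate pairs with at least 20 UMIs were lower in IR than in Control and 0 were higher, and Ski and Smad7 made up 8 of them. Of all genes, 4.34% to 8.4% were lower and 3.03% to 5.32% higher, depending on the gate. Between IR and IR+CBD, 5 of 57 such pairs were higher in IR+CBD and 0 lower, beside 1.29% to 6.39% and 1.98% to 3.67% of all genes. In cells that fell in 1 gate only, these numbers became 8 and 9, with calls in both directions. That setting drops the cells in several gates and their UMIs, and which of these changed the calls was not tested. Smad1 and Smad5 passed in none of the gates, with IR to Control ratios from 0.809 to 0.887 and from 0.601 to 1.04, while those of Smad4 went from 0.653 to 0.910. With IR+CBD over IR the ratios went from 0.987 to 1.47 for Smad1 and from 1.00 to 1.67 for Smad4.

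In the Mpo gate, Bmpr1a, Smad7 and Ski were lower in IR, 3 of 10 members beside 5.34% of 20223 genes, and 0 were higher beside 3.48%. Smad7 was at 29.0, 18.9 and 24.7 CPM, with an IR to Control ratio of 0.653 (0.616 to 0.692) and an IR+CBD to IR ratio of 1.30 (1.22 to 1.39). Ski was at 26.5, 16.2 and 19.7 CPM, with ratios of 0.611 (0.574 to 0.651) and 1.22 (1.13 to 1.30). Both were lowest in IR and in between in IR+CBD. Bmpr1a had only 65, 27 and 50 UMIs there and was the 1 member of 10 higher in IR+CBD than in IR (2.06, 1.27 to 3.42), beside 2.94% of genes higher, while 0 were lower beside 1.98%. Id1 was at 15.6, 19.1 and 20.5 CPM, with an IR to Control ratio of 1.23 (1.15 to 1.31). Stem and multipotent progenitor markers, 9 of 9, summed to 270, 215 and 235 CPM in this gate, led by Meis1 in Control and Kit in IR and IR+CBD. Megakaryocyte markers, 4 of 4, were at 27.0, 16.2 and 17.9 CPM, led by Pf4 in Control and Itga2b in the others. Stromal markers were at 7.80, 4.65 and 5.71 CPM, with 5, 5 and 6 of 6 detected. Of these stromal sums Pdgfrb made up 7.61, 4.35 and 5.34 CPM, so they rest mainly on 1 gene. Late neutrophil markers, 7 of 7, were at 6870, 5823 and 7155 CPM, led by S100a9 in IR and S100a8 in the others, and thus lowest in IR like Bmpr1a, which was highest in the Retnlg gate. The part of these lists in the values was not tested. Among cells of the Mpo gate alone the calls on Smad7 (0.868), Ski (0.806) and Bmpr1a (0.250 and 2.88, on few UMIs) were lost, and that on Smad7 was also lost with stricter gates (0.714) and with the median ratio set to 1 (0.667).

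In the Klf1 gate, Ski was the 1 of 10 members lower in IR, beside 5.51% of 16657 genes, and 0 were higher beside 3.22%. It was at 19.4, 12.4 and 11.9 CPM, with an IR to Control ratio of 0.641 (0.571 to 0.720). IR+CBD was no higher than IR here, with a ratio of 0.957 (0.858 to 1.07). No member passed 1.5-fold with IR+CBD over IR, beside 1.29% of 17182 genes higher and 3.67% lower, and 7 of 10 ratios were under 1. Id1 went from 3.06 to 2.18 CPM between IR and IR+CBD (0.713, 0.557 to 0.909) and Id3 from 3.71 to 2.72 CPM (0.734, 0.588 to 0.913), neither past 1.5-fold. The call on Ski was lost without the top 5% of cells by UMIs (0.679) and in cells of this gate alone (0.699), and without those top cells Id1 became higher in IR than in Control (1.57) and lower in IR+CBD than in IR (0.652, 0.456 to 0.920). Id2 became lower in IR+CBD than in IR in cells of this gate alone (0.630), and Smad4 lower in IR than in Control with stricter gates (0.658) and without genes above 0.5% of UMIs in the total (0.666). Of the 8 erythroid markers of this gate, Car1 was at 3347, 1846 and 2425 CPM and Hbb-bt at 228, 486 and 362 CPM. These were picked from the list and moved in opposite directions. Car2 led the list in IR and IR+CBD, at 2828 and 2925 CPM, and the whole list summed to 6977, 5926 and 6542 CPM. B lineage markers, 7 of 7 and led by Ebf1, were at 87.1, 133 and 101 CPM. Plasmacytoid dendritic cell markers were at 238, 373 and 231 CPM, led by Tcf4 in Control and Bst2 in the others, with 7, 7 and 6 of 7 detected, and the part of these in the values was not tested.

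In the Cd79a gate, Bmpr2 and Ski were lower in IR, 2 of 10 members beside 5.23% of 17794 genes, and 0 were higher beside 5.32%. Bmpr2 was at 30.6, 18.8 and 22.9 CPM, with an IR to Control ratio of 0.616 (0.557 to 0.680). Ski was at 19.8, 12.8 and 17.99 CPM, with an IR to Control ratio of 0.645 (0.571 to 0.729), and IR+CBD over IR was 1.41 (1.24 to 1.61). Ski in IR+CBD thus came within counting error of Control, at 0.910 of it (0.805 to 1.03), and Bmpr2 did not, at 0.749 (0.675 to 0.830). No member passed 1.5-fold with IR+CBD over IR, beside 2.91% of 17429 genes higher and 2.85% lower, although 10 of 10 ratios were over 1. Id2, at 20.6, 21.6 and 29.9 CPM, had the next largest of these ratios with an interval clear of 1 after Ski, 1.39 (1.253 to 1.53). Id3, the leading Id gene of these cells, was at 150.5, 167 and 180.0 CPM, with ratios of 1.11 (1.07 to 1.16) and 1.07 (1.03 to 1.12). In cells of this gate alone the call on Ski was lost for IR over Control (0.757) and reached for IR+CBD over IR (1.58), and Id1 passed 1.5-fold in both comparisons (1.78 and 1.56). For IR+CBD over IR, Ski also passed without the top 5% of cells (1.53) and with cells weighted equally (1.69), and Id1 in the latter (1.74). Markers of other cells moved in this gate as well. Megakaryocyte markers, 4 of 4, were at 21.4, 6.11 and 41.9 CPM, led by Pf4 in Control and IR+CBD and by Itga2b in IR, and erythroid markers, 8 of 8 and led by Car2, at 432, 1121 and 896 CPM. Late neutrophil markers, 7 of 7 and led by S100a9, were at 9105, 8013 and 11601 CPM, lowest in IR like Ski and Bmpr2. Stromal markers were at 6.99, 3.75 and 2.02 CPM, on 221, 135 and 52 UMIs, and thus lowest in IR+CBD. The part of such cells in the Ski, Bmpr2 and Id2 values was not tested.

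In the Retnlg gate, Smad7 was the 1 of 10 members lower in IR, beside 4.34% of 13665 genes, and 0 were higher beside 5.08%. It was at 29.2, 18.7 and 22.9 CPM, with an IR to Control ratio of 0.641 (0.547 to 0.750) that was lost in cells of this gate alone (0.864) and with cells weighted equally (0.716). No member passed 1.5-fold with IR+CBD over IR, beside 2.12% of 13754 genes higher and 2.94% lower. The ratios nearest to it were those of Smad1, at 7.62 CPM in IR and 11.2 in IR+CBD (1.47, 1.15 to 1.89), and Ski, at 18.9 and 27.5 CPM (1.45, 1.24 to 1.69). IR over Control for Smad1 turned from 0.843 to 1.55 when cells were weighted equally. The Smad1 ratio of IR+CBD to IR passed 1.5-fold with the median ratio set to 1 (1.51) and without genes above 0.5% of UMIs in the total (1.5045). With cells weighted equally it was 1.10. The Ski ratio of IR+CBD to IR passed without the top 5% of cells (1.57) and in cells of this gate alone (1.505), where Id3 became lower in IR+CBD (0.360, 0.116 to 0.956). Id1, at 30.3, 26.2 and 35.2 CPM, was lowest in IR, with ratios of 0.865 (0.751 to 0.998) and 1.34 (1.17 to 1.54), while Id2 at 53.8, 54.4 and 56.8 CPM had ratios of 1.01 and 1.04 with intervals that held 1. Megakaryocyte markers, 4 of 4, were at 43.4, 11.8 and 6.44 CPM here, led by Pf4 in Control and Itga2b in the other libraries, and erythroid markers, 8 of 8 and led by Hbb-bt, at 409, 1452 and 1231 CPM. Stem and multipotent progenitor markers, 9 of 9, were at 123, 79.4 and 107 CPM, led by Kit in IR and Meis1 in the others, and the part of these lists in the values was not tested.

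The Siglech gate rests on 46 cells in IR. Smad4 and Ski were lower in IR, 2 of the 9 members with enough UMIs, beside 5.39% of 10268 genes, and 0 were higher beside 3.66%. Smad4 was at 82.0, 53.6 and 89.4 CPM (0.653, 0.440 to 0.941), and IR+CBD over IR was 1.67 (1.09 to 2.59). Ski had 121, 9 and 39 UMIs, or 38.0, 14.6 and 46.5 CPM, with ratios of 0.384 (0.172 to 0.754) and 3.18 (1.52 to 7.47). Without the cell with most Ski UMIs in each library the last ratio was 2.58 (1.08 to 7.06), and in cells of this gate alone it was 1.54 with an interval from 0.557 to 4.89. Smad4 and Ski were the members higher in IR+CBD, 2 of 7 beside 6.39% of 7840 genes, and 0 were lower beside 3.3%. The Smad4 call for IR over Control was lost in cells of this gate alone (0.690) and with cells weighted equally (0.686). Smad7 became lower in IR without the top 5% of cells (0.653), with stricter gates (0.646) and with cells weighted equally (0.621), as did Bmpr2 (0.521) with stricter gates, Smad5 (0.356) with cells weighted equally and Id2 (0.310) in cells of this gate alone. Bmpr1a had 5, 0 and 1 UMIs here, and the 0 in IR allows up to 3 UMIs, or 4.87 CPM. Other cells' markers differed between the libraries of this gate. Late neutrophil markers, 7 of 7 and led by S100a9, were at 5041, 17825 and 5327 CPM and monocyte markers, 4 of 4 and led by Ly6c2, at 796, 1648 and 1012 CPM, both highest in IR. Erythroid markers were at 759, 229 and 292 CPM, led by Car1 in Control and Tfrc in the others. Stem and multipotent progenitor markers, led by Flt3, were at 302, 153 and 290 CPM, on 962, 94 and 243 UMIs, and thus lowest in IR like Smad4 and Ski. The part of these in the Smad4 and Ski values was not tested.

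In the Cd34-Adgrl4 gate, Bmpr1a, Bmpr2, Smad7 and Ski were lower in IR, 4 of 10 members beside 8.4% of 19842 genes, and 0 were higher beside 3.03%. Smad7 was at 60.4, 30.0 and 45.5 CPM, with an IR to Control ratio of 0.498 (0.473 to 0.524) and an IR+CBD to IR ratio of 1.51 (1.43 to 1.61). Ski was at 45.6, 22.9 and 33.0 CPM, with ratios of 0.502 (0.473 to 0.532) and 1.44 (1.35 to 1.55). IR+CBD thus lay between the other libraries for both genes, at 0.754 and 0.724 of Control. Bmpr2 was at 49.1, 32.7 and 39.6 CPM, with an IR to Control ratio of 0.665 (0.632 to 0.700) that stood just past the limit. Setting the median ratio to 1 (0.680) or leaving genes above 0.5% of UMIs out of the total (0.667) ended that call.

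Bmpr1a in this gate rests on 66, 24 and 38 UMIs, with ratios of 0.514 (0.308 to 0.831) and 1.91 (1.12 to 3.33). Bmpr1a and Smad7 were the 2 of 10 members higher in IR+CBD than in IR, beside 2.76% of 18788 genes, and 0 were lower beside 2.3%. The Bmpr1a call for IR+CBD over IR was lost with cells weighted equally (1.501, 0.877 to 2.62), where the interval held 1, and that on Smad7 with the median ratio set to 1 (1.498), just under the limit of 1.5-fold. In cells of this gate alone the calls on Bmpr1a in both comparisons, on Bmpr2 (0.688) and on Smad7 for IR+CBD over IR (1.48) were lost. Calls were gained in the same cells on Id1 (1.60 and 1.54), on Id2 (1.80 and 0.328) and on Id3 for IR+CBD over IR (1.82), and with cells weighted equally Ski passed for IR+CBD over IR (1.51). Id1 was at 14.0, 18.4 and 20.5 CPM, lowest in Control, with an IR to Control ratio of 1.32 (1.22 to 1.42) and an IR+CBD to Control ratio of 1.46 (1.35 to 1.58). Id3, at 5.98, 4.97 and 5.44 CPM, had an IR to Control ratio of 0.831, which became 0.599 without the top 5% of cells by UMIs and 0.513 with cells weighted equally. Megakaryocyte markers, 4 of 4 detected, summed to 73.7, 24.4 and 29.5 CPM in this gate, with Pf4 leading in Control and Itga2b in IR and IR+CBD. The 9 stem and multipotent progenitor markers moved as well, as given above, and late neutrophil markers, 7 of 7 and led by S100a9, were at 3311, 3134 and 4156 CPM. The part of these lists in the values of Bmpr1a, Smad7 and Ski was not tested.

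Cd34-Adgrl4 cells outside the Mpo gate numbered 967, 246 and 327, with median depths of 15047, 21638 and 17171 UMIs per cell. Their 9 of 9 stem and multipotent progenitor markers summed to 1432, 1317 and 1412 CPM, led by Meis1 in Control and IR+CBD and by Mecom in IR. Other lists differed between the libraries. Megakaryocyte markers, 4 of 4 and led by Pf4, were at 326, 119 and 109 CPM, and late neutrophil markers, 7 of 7 and led by S100a9, at 5857, 4811 and 9502 CPM. B lineage markers, 7 of 7 and led by Ebf1, were at 348, 518 and 340.0 CPM, while the 5 T and natural killer cell markers summed to 170, 290 and 268 CPM. Nkg7 alone made up 167, 290 and 266 CPM of these sums and was higher still in the Mpo gate (429.8, 511 and 616 CPM), and Cd3e and Ncr1 were at 0 in IR and IR+CBD, so these sums rest mainly on 1 gene. Stromal markers, led by Pdgfrb, were at 18.2, 10.0 and 10.6 CPM, on 298, 58 and 67 UMIs, with 5, 3 and 3 of 6 detected. The part of these lists in the values that follow was not tested.

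Here Bmpr1a, Smad7 and Ski were lower in IR, 3 of 10 members beside 7.05% of 14779 genes, and Id1 and Id2 were higher, 2 of 10 beside 3.2%. Smad7 was at 191, 127 and 173 CPM, with ratios of 0.662 (0.610 to 0.718) and 1.36 (1.24 to 1.498). Ski was at 116, 71.0 and 107 CPM, with ratios of 0.611 (0.548 to 0.680) and 1.504 (1.33 to 1.70). IR+CBD was within counting error of Control for Ski (0.919, 0.840 to 1.00) and close below it for Smad7 (0.902, 0.841 to 0.967). Bmpr2 was at 109, 75.1 and 98.7 CPM, with ratios of 0.691 (0.621 to 0.768) and 1.31 (1.16 to 1.49), and no longer passed 1.5-fold, while Bmpr1a had 28, 2 and 5 UMIs (IR over Control 0.202, 0.0234 to 0.803).

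Id1 in these cells was at 14.3, 22.9 and 35.2 CPM. Its IR to Control ratio was 1.60 (1.28 to 1.99) and its IR+CBD to IR ratio 1.54 (1.24 to 1.93), and without the cell with most Id1 UMIs in each library they were 1.55 and 1.58. Id1 was thus higher in IR than in Control and higher again in IR+CBD, whereas Ski was lowest in IR. Id2 was at 18.4, 28.0 and 11.5 CPM, highest in IR, with ratios of 1.52 (1.252 to 1.85) and 0.411 (0.307 to 0.545). A single IR cell held 30 of its 162 UMIs, and without the top cell of each library the ratios were 1.30 (1.05 to 1.60) and 0.466 (0.342 to 0.630), so the first call was lost. Id1 and Ski were the members higher in IR+CBD than in IR, 2 of 9 beside 2.53% of 13069 genes, and Id2 was the 1 lower, beside 2.16%. Id3 was at 17.4, 13.5 and 20.2 CPM, with an IR+CBD to IR ratio just under 1.5-fold (interval 1.12 to 2.01) that was 1.58 without the top cells.

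Outside all gates there were 1688, 1168 and 1357 cells, whose calls were made after the data were seen. Smad7 and Ski were lower in IR, 2 of 10 members beside 6.36% of 15808 genes, and 0 were higher beside 3.34%. Smad7 was at 123, 69.1 and 86.3 CPM (IR over Control 0.560, 0.519 to 0.604), and the ratio of Ski was 0.657 (0.595 to 0.726). Ski lost its call with the median ratio set to 1 (0.681) and without genes above 0.5% of UMIs in the total (0.676), and Id1 passed 1.5-fold with cells weighted equally (1.57). Bmpr1a, on 58 UMIs in IR and 37 in IR+CBD, was the 1 member of 10 lower in IR+CBD than in IR (0.643, 0.414 to 0.988), beside 2.62% of 15358 genes, and 0 were higher beside 2.28%. Equal weighting of cells ended that call (0.819). Megakaryocyte markers, 4 of 4 and led by Pf4, were at 429.7, 232 and 375 CPM in these cells. Stromal markers, 5 of 6, were at 25.3, 8.10 and 23.9 CPM, led by Cxcl12 in Control and IR+CBD and by Pdgfrb in IR, and the part of these lists in the values was not tested.

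**Figure D3:**
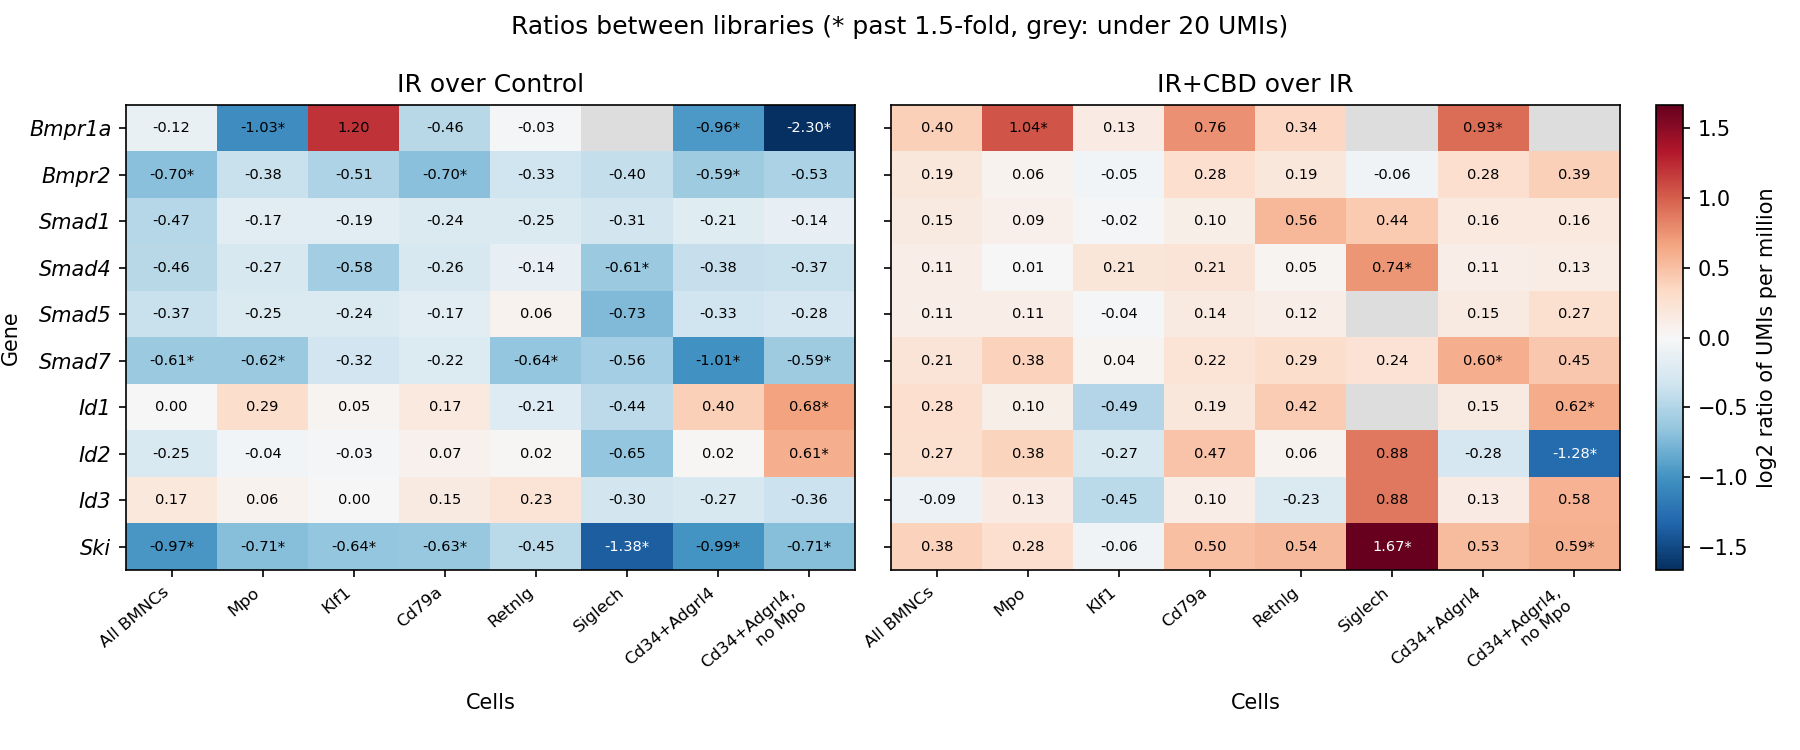
Ratios of CPM for the 10 genes in all BMNCs, the 6 gates and the Cd34-Adgrl4 cells outside the Mpo gate, as log2 values, for IR over Control on the left and IR+CBD over IR on the right, where an asterisk marks a ratio past 1.5-fold whose interval leaves out 1 and grey a pair under 20 UMIs. The Ski values on the left are all below 0 (ratios 0.384 to 0.731), and those on the right are above 0 except in the Klf1 gate (ratio 0.957).

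The members that were lower in IR in all BMNCs are longer genes than the Id genes, which was noticed after their values were seen. Bmpr2 spans 116 kb, Bmpr1a 92.6 kb, Ski 68.5 kb, Smad4 64.8 kb, Smad1 61.1 kb, Smad5 39.4 kb and Smad7 28.4 kb. Id1, Id2 and Id3 span 1.16, 3.34 and 2.26 kb. All genes were therefore divided by length after the data were seen. The median log2 ratio of IR to Control in all BMNCs was −0.05 under 5 kb, −0.01 from 5 to 20 kb, −0.05 from 20 to 50 kb, −0.11 from 50 to 100 kb and −0.16 over 100 kb. The percentage lower past 1.5-fold was 8.64%, 7.78%, 8.2%, 11.3% and 15.9% in the same order. Bmpr2 thus falls in the bin with the highest percentage lower and Smad7 in one near the percentage for all genes. With IR+CBD over IR the medians were −0.01, −0.02, 0.00, 0.04 and 0.03. Bmpr2, Smad7 and Ski lay below the medians of their own bins, at 0.615, 0.654 and 0.511 of Control, and the part of gene length in their values was not tested.

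**Figure D4:**
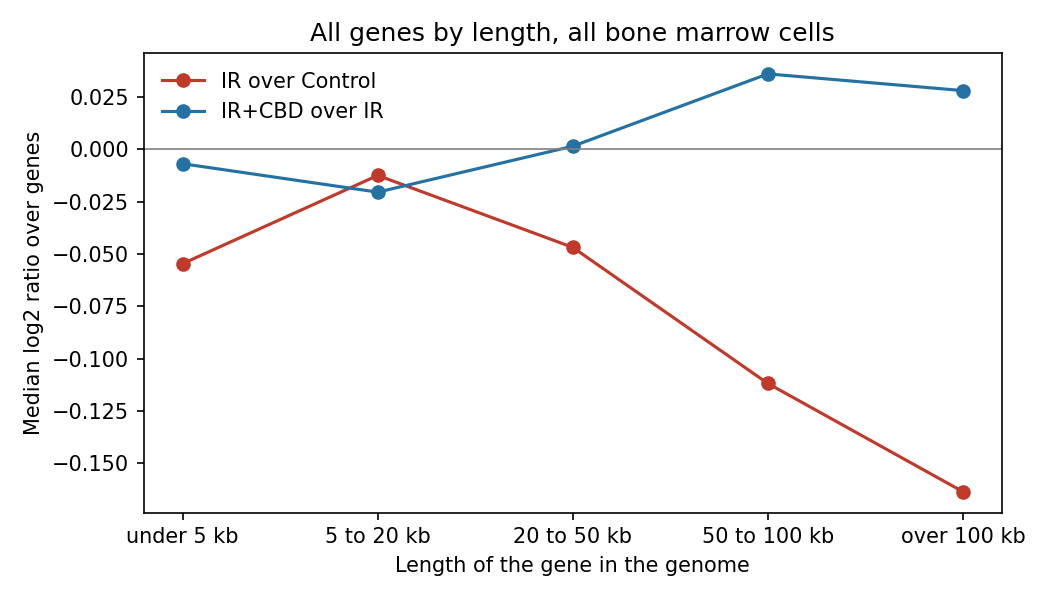
Median log2 ratio of all genes with at least 20 UMIs in all BMNCs, on the vertical axis, in 5 bins of gene length on the horizontal axis, for IR over Control (red) and IR+CBD over IR (blue). The red median is −0.16 over 100 kb and −0.01 from 5 to 20 kb, and the blue medians lie between −0.02 and 0.04.

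The other genes of the pathway were taken from a list of 73 ligands, receptors, SMADs, regulators, targets and Id partners that excludes the members. In all BMNCs, 17 of the 69 with at least 20 UMIs were lower in IR than in Control and 3 were higher, beside the 9.38% and 4.85% of all genes given above, with a median log2 ratio of −0.28. The lowest, ranked by the interval's bound on the side of 1, were Pmepa1, a TGF-beta target that restrains SMAD signalling, at 7.77 CPM in Control and 3.24 in IR (0.417), and Ltbp3, which binds latent TGF-beta, at 2.78 and 1.28 CPM (0.461). The activin and BMP receptors Acvr2a, at 13.5 and 7.29 CPM (0.539), and Acvr1, at 9.27 and 5.21 CPM (0.562), and Skil, the close relative of Ski, at 40.8 and 24.6 CPM (0.603), followed. Skil and Ski were thus lower together. The highest were Gdf3, a ligand of the family, at 6.88 and 21.7 CPM (3.16), Tgfbr3, the co-receptor betaglycan, at 26.5 and 48.9 CPM (1.84), and Neo1, at 0.575 and 1.08 CPM (1.87). Tal1 (1.40) and Tab1 (1.24) came next and did not pass 1.5-fold.

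With IR+CBD over IR in all BMNCs, 1 of 68 listed genes was higher, the antagonist Fst on 33 and 61 UMIs (2.16, 1.39 to 3.40), and 0 were lower, beside 2.7% and 2.74% of all genes, with a median log2 ratio of 0.08. Thbs1, an activator of latent TGF-beta, went from 7.32 CPM in IR to 10.5 in IR+CBD (1.43), Pmepa1 from 3.24 to 4.55 (1.40), Bmp1 from 1.40 to 1.86 (1.33), Gdf15 from 3.07 to 3.89 (1.27) and Skil from 24.6 to 29.5 (1.20). The lowest ratios were those of Neo1 (0.744), Tgfbr3 (0.904), Eng (0.909), Gdf3 (0.912) and Strap (0.934). None of these passed 1.5-fold. In the Cd34-Adgrl4 gate, 14 of 59 listed genes were lower in IR and 2 higher, beside 8.4% and 3.03% of all genes, with a median of −0.20. With IR+CBD over IR, 4 of 59 were higher and 0 lower, beside 2.76% and 2.3%, with a median of 0.12. The E proteins that Id proteins bind showed no shared direction in all BMNCs, with Tcf3 at 76.8, 91.0 and 85.7 CPM, Tcf4 at 191, 136 and 140.4 CPM and Tcf12 at 187, 180.2 and 186 CPM. In the Cd79a gate, where Id3 was highest, Tcf3 was at 191, 207 and 214 CPM. Tcf4 was at 308, 286 and 287 CPM there and Tcf12 at 307, 305 and 331 CPM, so they shared no direction in this gate either.

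For each member the 2 genes with the most similar levels over the 6 gates of the 3 libraries were found by Pearson r of log2(CPM + 1), over 17621 genes. The 18 points share libraries and depth, so r is a description only. Bmpr1a was closest to Gm36159 (0.989) and Slc27a4 (0.988), and Bmpr2 to Rgs1 (0.941) and Rnf180 (0.939). Smad1 was closest to Sh2d5 (0.978) and Synj2 (0.977), Smad5 to Prdm11 (0.966) and Gmcl1 (0.965), and Smad4 to Inpp5d (0.976) and Ptbp3 (0.972). Smad7 was closest to Epc1 (0.982) and Epc2 (0.978), and Ski to Cables1 (0.928) and F11r (0.900), the lowest r of any member. Id1 was closest to Hk3 (0.977) and Trem3 (0.975), Id2 to Pde1b (0.979) and Mirt1 (0.977), and Id3 to Niban3 (0.994) and Rrm2b (0.993). No other member was among these genes.

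Promoters of 7 members were matched in the RefSeq table (GRCm38.p6), and Id1, Smad4 and Smad7 were not matched. The 250 bases before each start were searched for GGCGCC, a GC element described for BMP SMADs, which reads the same on both strands, and for CAGAC, which holds the SMAD box and reads GTCTG from the opposite strand. The motifs and the promoters shown were chosen after the values and sequences had been seen. Of 32851 promoters, 9.59% held GGCGCC and 42.2% held CAGAC on either strand. The promoters of Bmpr2 (chr1:59764029-59764278, plus strand) and Ski (chr4:155222536-155222785, minus strand) are shown as those of genes lower in IR. Those of Id2 (chr12:25096093-25096342, minus strand) and Id3 (chr4:136143572-136143821, plus strand) are shown as those of Id genes, which did not pass 1.5-fold. Capitals mark the motif matches, which are a description of the letters and not sites of binding.
Bmpr2: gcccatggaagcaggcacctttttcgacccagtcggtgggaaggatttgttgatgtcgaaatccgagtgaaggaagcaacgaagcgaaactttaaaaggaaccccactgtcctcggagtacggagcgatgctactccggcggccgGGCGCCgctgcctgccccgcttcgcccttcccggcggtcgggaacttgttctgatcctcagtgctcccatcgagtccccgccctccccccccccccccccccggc
Ski: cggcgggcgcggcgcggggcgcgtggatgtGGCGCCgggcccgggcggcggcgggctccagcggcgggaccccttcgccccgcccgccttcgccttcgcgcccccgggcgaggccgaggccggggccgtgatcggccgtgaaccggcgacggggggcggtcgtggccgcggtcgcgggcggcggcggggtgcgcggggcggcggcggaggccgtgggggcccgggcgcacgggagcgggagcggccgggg
Id2: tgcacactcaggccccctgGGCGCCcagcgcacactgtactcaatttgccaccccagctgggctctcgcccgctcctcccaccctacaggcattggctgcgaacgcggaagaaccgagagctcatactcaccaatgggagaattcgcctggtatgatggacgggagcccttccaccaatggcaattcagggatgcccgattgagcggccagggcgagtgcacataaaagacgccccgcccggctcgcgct
Id3: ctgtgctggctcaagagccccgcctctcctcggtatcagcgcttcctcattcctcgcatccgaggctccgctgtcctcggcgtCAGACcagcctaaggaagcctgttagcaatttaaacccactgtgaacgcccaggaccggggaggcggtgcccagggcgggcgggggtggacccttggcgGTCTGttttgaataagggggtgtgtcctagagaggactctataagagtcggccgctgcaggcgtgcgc
Bmpr2, Ski and Id2 each hold 1 GGCGCC and no CAGAC on either strand, and Id3 holds 2 matches to CAGAC, 1 on each strand, and no GGCGCC. Among the promoters not shown, that of Bmpr1a and 1 of 3 of Smad5 also hold 1 GGCGCC. Another promoter of Smad5 holds 1 match to CAGAC on either strand, and that of Smad1 holds neither motif. The GC element thus occurs both in genes lower past 1.5-fold in IR and in genes that did not pass.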

How the data were processed

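The deposited counts were UMIs per gene and called cell in 1 matrix per group, not normalized by the authors. Per the file headers they came from Cell Ranger 7.0.1, while the study's methods name version 4.0, and the submitters' processing notes name GRCm39. Reads in introns are counted by default in the former version. UMIs were summed over cells with pandas 2.3.3, scipy 1.17.1 and numpy 2.4.6 under Python 3.11.15, and matplotlib 3.10.9 drew the plots. CPM have exact Poisson and ratios exact conditional binomial 95% intervals. The ratio intervals and calls were tested on Poisson counts drawn at the depths of summed libraries. That test holds no variation between cells, so it does not show how the intervals do under such variation. List medians used log2 ratios with 0.5 UMI added.

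The members, gates and lists were chosen with earlier results of these data known. All 10 members were named. Of the pathway list, the 5 highest and 5 lowest ratios per comparison in all BMNCs were named, by the bound nearest to 1 and with at least 100 UMIs, and the E proteins Tcf3, Tcf4 and Tcf12. Fst fell outside this rule and was named after its value was seen. For likeness, the 2 highest r per member were named, among genes with at least 200 UMIs. Doublets were not called, and no share of background RNA in the droplets was estimated. Of the kept cells, 2470 Control, 2060 IR and 2055 IR+CBD cells fell in several gates. Alternatives were a mitochondrial limit of 10%, a minimum of 1000 genes, leaving out the top 5% of cells by UMIs, cells weighted equally, the median of ratios set to 1, genes above 0.5% of UMIs left out of the total, the Control mix of cells, stricter gates, cells in 1 gate only, and calls at 1.25-fold and 2-fold. Leaving Mpo-gate cells out of the Cd34-Adgrl4 gate, bins of gene length and the alternatives on cells outside all gates were added after the data were seen. The median log2 ratio of genes with at least 100 UMIs in both libraries, which that scaling set to 0, lay between −0.05252 and 0.02611 over the populations. Gene lengths came from GENCODE M21 (GRCm38) by Ensembl identifier, with 95.3% of genes matched. They replaced a first division by RefSeq lengths matched by symbol, which covered fewer genes and in which the longest genes were also the lowest.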

Additional observations from a re-analysis of the deposited data

How the results depend on the processing

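In all BMNCs, 3 members passed 1.5-fold with IR over Control. The number was 1 with the Control mix of cells, 6 at the smaller fold limit and 0 at 2-fold. With IR+CBD over IR it was 0, and 2 at the smaller limit. Over the 6 gates, 13 member-gate pairs passed with IR over Control, 8 in cells of 1 gate only, 22 at the smaller limit and 3 at 2-fold. With IR+CBD over IR, 5 pairs passed, 8 without the top 5% of cells by UMIs, 9 in cells of 1 gate only, 16 at the smaller limit and 2 at 2-fold. The numbers at other fold limits follow from the limit itself. For the other settings the cause was not tested. No call turned to the opposite direction under any alternative run, but some ratios without a call did. The direction was kept by 141 of 158 ratios with cells weighted equally and 149 of 158 without the top 5% of cells. It was kept by 106 of 117 with stricter gates and 105 of 116 in cells of 1 gate only.

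Of 158 single ratios, 158 stayed within their interval with a mitochondrial limit of 10% or a minimum of 1000 genes, 156 with the median of ratios set to 1, 141 without the top 5% of cells and 112 with cells weighted equally. Of 116 ratios in cells of 1 gate only, 79 did so, and 15 moved by over 1.5 times. With the Control mix of cells 9 of 20 stayed within their interval, and 10 of 20 without Mpo-gate cells in the Cd34-Adgrl4 gate. Ratios that moved by over 1.5 times numbered 7 with cells weighted equally, 4 without the top 5% of cells and 4 with stricter gates. Without Mpo-gate cells in the Cd34-Adgrl4 gate they numbered 3. No paired analysis was possible because each group was 1 library. The Siglech gate, with 46 IR cells, and Bmpr1a outside the Retnlg gate, with few UMIs, are limited by depth.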
